A study of Mus musculus with 6 samples.

Results

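The genes described here are 10 effector genes of the deep cortical layers: Crym, Tcerg1l, Sulf2, Diaph3, S100a10, Pcp4, Parm1, Hsd11b1, Rprm and Syt6. They are markers of layer 5 or layer 6 neurons that encode enzymes, binding proteins and membrane proteins, and none was listed for being a transcription factor. Every non-control probe that the array files name after one of them was taken, which gave 11 probes of 9 genes out of 55681 probes. Diaph3 is listed in the files under its older name, Diap3. Its 1 probe was found through its RefSeq accession, is shown beside the others and is not counted among the 11.

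Neurons of layers 5 and 6 are the main output cells of the cortex. Layer 5 holds pyramidal neurons that project to the spinal cord, brainstem and tectum and others that project within the cortex and to the striatum, while many layer 6 neurons project back to the thalamus. In the mouse, Crym, S100a10, Pcp4 and Diaph3 are known as genes of corticospinal neurons, and Rprm and Syt6 as genes of layer 6.

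RNA came from dissected primary somatosensory cortex (S1, the cortical area for touch) of C57BL/6 mice at postnatal day 7, and each sample was read on its own 1-colour array. Of the 6 samples, 3 were controls with floxed Lhx2 (Lhx2f/f) and no Cre, which the labels also call wild-type. The other 3 were labelled Lhx2 cKO (Lhx2f/f;Nex-Cre), so both groups carried the floxed alleles. Lhx2 is a LIM-homeodomain transcription factor. Nex-Cre is a Cre recombinase expressed from the Neurod6 (Nex) gene in excitatory neurons of the cortex from soon after they are born, so interneurons and glia keep the floxed gene intact. The labels state neither whether tissue was pooled nor whether each sample was a different mouse. A p-value here covers the spread among the samples, which may be technical.

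The Lhx2 probe gave a log2 signal of 4.43, 4.55 and 4.77 on the arrays labelled cKO and of 3.49, 3.50 and 3.44 on the control arrays (log2 difference 1.1, SE 0.11, adjusted p = 0.088 by limma). It was thus higher, not lower, in the group in which Lhx2 was targeted. Its position relative to the deleted exons is not known here. The group is therefore called the arrays labelled cKO, and directions are those of the labels. All 6 arrays came from 1 slide and 1 scan. Control replicate 1 and cKO replicate 2 shared slide row 1, and control replicate 2 and cKO replicate 3 shared row 2. In both rows the control array lay in slide column 1 and the cKO array in column 2, so group and column cannot be told apart there. Y-linked signal, which marks male tissue, was present in control replicates 1 and 3 and in no other array. On those arrays 1 Xist probe read -8.46 and -8.14, against 0.60 to 1.01 on the others. The second Xist probe was also lowest there. Group and sex therefore cannot be fully told apart. Between 86.7% and 91.1% of the spots were well above background, and precision is limited by there being 3 arrays a group.

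All 11 probes and the Diaph3 probe were well above background on all 6 arrays. Levels are log2 processed signals relative to the array's 75th percentile, and a difference is the mean of the arrays labelled cKO minus that of control on this scale. Because probes differ in how strongly they bind their target, the level of one gene is not set against that of another. In dissected tissue, fewer cells of a type and less RNA per cell cannot be told apart.

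None of the 11 probes passed an adjusted p of 0.05 by limma, and neither did any of the 50030 probes tested (0%). The adjusted p of the members ranged from 0.107 to 0.999. At an unadjusted p under 0.05, 6 of the 11 were higher in the arrays labelled cKO, against 2.9% of all probes tested, and 1 was lower, against 3.9%. The groups did not overlap for 7 of the 11 (12.7% of all probes), with 6 higher (6.82% of all probes) and 1 lower (5.89%). The members were picked with earlier results of these arrays known, so these counts describe them and are no independent support. Their median log2 difference was 0.32, beside 0.02 over all probes, and the range was from -0.42 to 1.09. With the Diaph3 probe added the median was 0.11, with 6 probes higher and 6 lower in mean and the lowest at -0.62. It was also 0.11 with 1 probe for each of the 10 genes, of which 5 were higher and 5 lower. The genes of neither layer went 1 way: layer 5 held Tcerg1l at 1.09 and Pcp4 at -0.28, and the layer 6 members Rprm and Syt6 differed in sign.

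**Figure D1:**
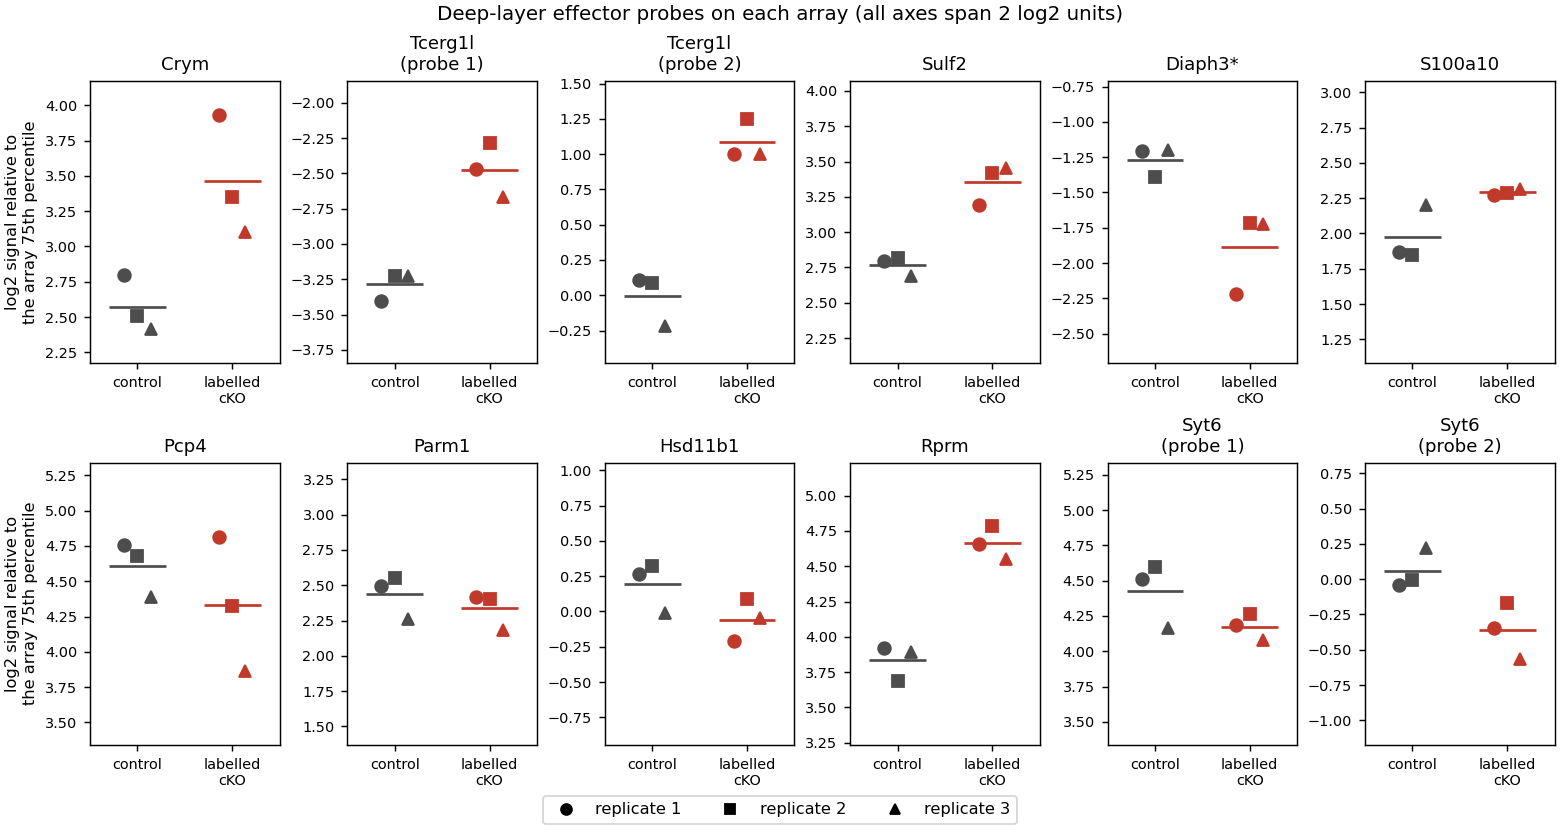
Log2 signal, with each array's 75th percentile at 0 (vertical axis, 2 log2 units in every panel), for each probe on the 3 control arrays (grey) and the 3 arrays labelled cKO (red). Symbols give the replicate number, lines the group means, and the asterisk marks the Diaph3 probe, which was found by accession. The groups are apart, with the cKO arrays higher, for Crym, both Tcerg1l probes, Sulf2, S100a10 and Rprm, and lower for Diaph3 and the second Syt6 probe.

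Tcerg1l, a layer 5 gene, gave the smallest p of the members. It has 2 probes on the minus strand of chromosome 7, both of 60 bases, and the starts of their genomic positions on mm9 lie 50.7 kb apart. They are shown because they read separate places of the transcript and both kept the groups apart (no base is marked).
Tcerg1l probe 1, chr7:145451551-145451610: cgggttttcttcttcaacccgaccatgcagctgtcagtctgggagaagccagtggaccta
Tcerg1l probe 2, chr7:145400878-145400937: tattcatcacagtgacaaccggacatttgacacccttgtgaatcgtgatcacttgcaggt
Probe 2 read 1.0, 1.25 and 1.0 on cKO replicates 1, 2 and 3 and 0.11, 0.08 and -0.21 on control replicates 1, 2 and 3. The lowest cKO array lay 0.89 log2 units above the highest control array. Tcerg1l was thus 2.13-fold higher by this probe (log2 difference 1.09, SE 0.13, 95% interval 0.78 to 1.41, adjusted p = 0.107). Probe 1 read -2.47, -2.28 and -2.66 on the arrays labelled cKO and -3.41, -3.22 and -3.23 on control. This probe too was higher on all 3 arrays labelled cKO than on any control array, with a log2 difference of 0.81 (SE 0.13, adjusted p = 0.178). Within slide rows 1 and 2 the differences of probe 2 were 1.14 and 0.91. Both probes therefore gave the same direction, at about 1.8 and 2.1 times the control signal in the main fit. Probe 1 was the dimmer, at 95 to 114 intensity units on control. Its difference depended on the background: with normexp background correction it was 0.58, and that of probe 2 was 1.05.

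Sulf2 encodes an extracellular sulfatase that removes 6-O-sulfate groups from heparan sulfate chains. Its probe (chromosome 2, 165899667 to 165899726 on mm9) read 3.19, 3.42 and 3.45 on the arrays labelled cKO and 2.80, 2.82 and 2.69 on control. Every cKO array lay above every control array, and the control arrays lay close together (SD 0.07). Sulf2 was 1.5-fold higher (log2 difference 0.59, SE 0.11, 95% interval 0.33 to 0.84, adjusted p = 0.264). The slide rows gave 0.62 and 0.64.

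Crym encodes mu-crystallin, a thyroid hormone binding protein. Its probe (chromosome 7, 127329970 to 127330029) read 3.93, 3.35 and 3.10 on cKO replicates 1, 2 and 3 and 2.80, 2.51 and 2.41 on control replicates 1, 2 and 3. The arrays labelled cKO were all higher than control but spread widely (SD 0.43), with replicate 1 the highest. Crym was 1.85-fold higher (log2 difference 0.89, SE 0.23, 95% interval 0.35 to 1.43, adjusted p = 0.429). Without cKO replicate 1 the difference was 0.65, and within slide rows 1 and 2 it was 0.55 and 0.59.

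Pcp4 encodes a small calmodulin-binding protein and, like Crym, is known from corticospinal neurons. Its probe (chromosome 16, 96747241 to 96747300) read 4.82, 4.32 and 3.87 on the arrays labelled cKO and 4.76, 4.68 and 4.39 on control. The groups overlapped, since cKO replicate 1 held the highest value of all 6 and replicate 3 the lowest. The log2 difference was -0.28 (SE 0.24, 95% interval -0.86 to 0.30, adjusted p = 0.994). Its size depended on which array was left out or weighted: it was -0.52 without cKO replicate 1, -0.04 without cKO replicate 3 and -0.58 with array weights. Within slide rows 1 and 2 it was -0.44 and -0.82.

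Crym and Pcp4 were both highest on replicate 1 and lowest on replicate 3 of each group. Subtracting Pcp4 from Crym on each array, which removes any factor that scales a whole array, left 1.15, 1.06 and 1.27 on cKO replicates 1, 2 and 3 relative to the control mean. The control arrays lay at 0.07, -0.13 and 0.06. The Crym to Pcp4 ratio was thus higher by 1.16 on the log2 scale in the arrays labelled cKO, with an SD of 0.10 in that group and 0.12 in control. The exact two-sided permutation test gave p = 0.1 (adjusted p = 0.1 over the 2 pairs computed), which is the smallest value that 3 arrays against 3 allow. The pair was chosen after its values were seen, and a ratio shows unequal change and not which gene differed.

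S100a10, also called p11, encodes the partner of annexin A2. Its probe (chromosome 3, 93368437 to 93368496) read 2.28, 2.29 and 2.31 on the arrays labelled cKO and 1.87, 1.85 and 2.20 on control. The groups did not overlap, but control replicate 3 lay only 0.08 below the lowest cKO array. The log2 difference was 0.32 (SE 0.12, 95% interval 0.03 to 0.61, adjusted p = 0.671). With quantile normalization the groups overlapped.

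The Diaph3 probe (chromosome 14, 87056260 to 87056319) was lower in the arrays labelled cKO. Diaph3 encodes a formin, a protein that nucleates and elongates actin filaments and also acts in dividing cells. The probe read -2.22, -1.71 and -1.73 on the arrays labelled cKO and -1.21, -1.39 and -1.20 on control. All 3 cKO arrays lay below control, with replicate 1 the lowest (log2 difference -0.62, SE 0.16, 95% interval -1.0 to -0.24, adjusted p = 0.430). Without cKO replicate 1 it was -0.45, and within slide row 2 it was -0.34. Markers of cycling cells were lower as well: of 10 listed, 9 were tested, 9 of these had a lower mean in the arrays labelled cKO, and their median log2 difference was -0.36, which was -0.15 without control replicate 3. The log2 of their summed signal lay between 2.97 and 3.15 on the arrays labelled cKO and between 3.15 and 3.76 on control, where replicate 3 was the highest, and the part of dividing cells in the Diaph3 value was not tested.

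Parm1 and Hsd11b1 were each spotted 10 times per array, which lowers their measurement error: the spots of 1 array varied by 3.38% to 5.23% (coefficient of variation) for Parm1 and by 3.62% to 6.33% for Hsd11b1. Parm1 encodes a mucin-like membrane protein. Its probe (chromosome 5, 92052938 to 92052997) read 2.42, 2.40 and 2.19 on the arrays labelled cKO and 2.50, 2.55 and 2.26 on control, after 6 outlier spots were left out. The groups overlapped, and replicate 3 was the lowest in each. The log2 difference of Parm1 was -0.10 (SE 0.12, 95% interval -0.39 to 0.19, adjusted p = 0.999). It ranged from -0.26 to -0.02 over the alternatives, the smallest without cKO replicate 3 and the largest with array weights. It was -0.04 and -0.19 without control replicates 2 and 3, and -0.22 with a term for Y-linked signal.

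Hsd11b1 encodes the enzyme that regenerates active glucocorticoid from its inactive form, and it is known as a marker of a layer 5 population that projects within the cortex. Its probe (chromosome 1, 195048169 to 195048228) read -0.21, 0.08 and -0.05 on the arrays labelled cKO and 0.26, 0.32 and -0.01 on control. Control replicate 3 lay between cKO replicates 2 and 3, so the groups overlapped. The log2 difference was -0.25 (SE 0.13, 95% interval -0.56 to 0.07, adjusted p = 0.859), and -0.38 when Y-linked signal was a term in the fit, which compares the arrays labelled cKO with control replicate 2 alone.

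**Figure D2:**
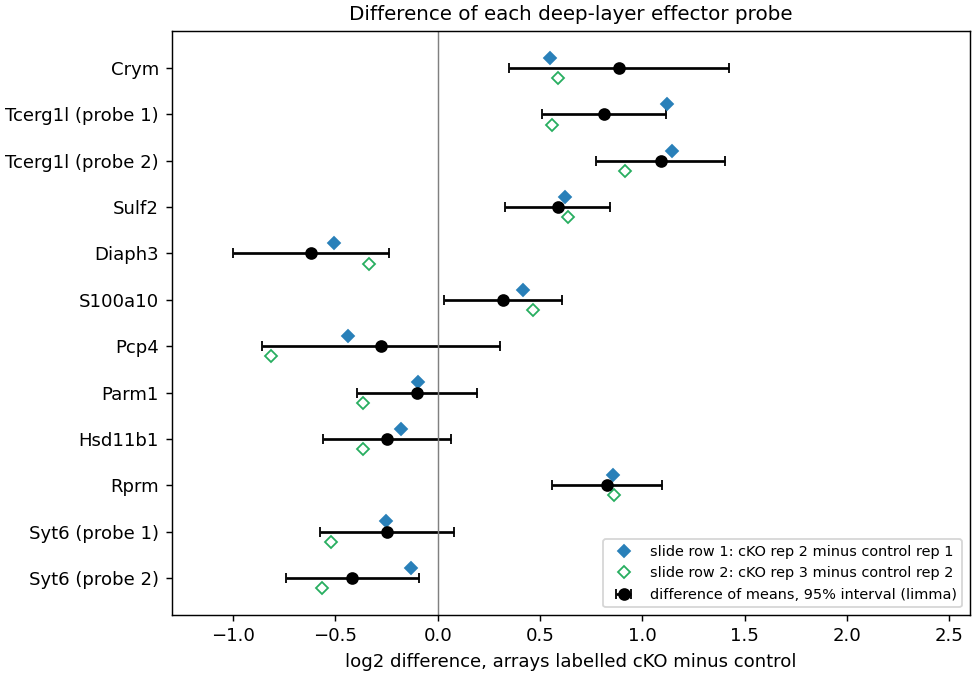
Log2 difference between the arrays labelled cKO and control (horizontal axis) for each probe, with the 95% interval of the limma fit as bars. Diamonds give the difference of the 2 arrays that shared slide row 1 (filled) or row 2 (open). Tcerg1l (1.09) and Rprm (0.83) lie farthest to the right among the layer 5 and layer 6 genes. The row values have the sign of the overall difference for all 12 probes. For the 8 probes whose groups do not overlap they could have no other sign.

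In layer 6, Rprm and Syt6 differed in sign. Rprm, named reprimo, is known for arresting the cell cycle downstream of p53 and marks layer 6 neurons that project to the thalamus. Its probe (chromosome 2, 53936668 to 53936727) read 4.66, 4.78 and 4.55 on the arrays labelled cKO and 3.92, 3.69 and 3.90 on control. The gap between the groups, 0.63 log2 units, was larger than the range within either. Rprm was 1.77-fold higher (log2 difference 0.83, SE 0.11, 95% interval 0.56 to 1.1, adjusted p = 0.14). The slide rows gave 0.86 each, and leaving out each array in turn gave 0.75 to 0.88.

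Syt6 encodes a synaptotagmin, a membrane protein of vesicle traffic. The files assign its 2 probes, on the plus strand of chromosome 3 with starts 14.3 kb apart, to different transcript variants: probe 1 (103439038 to 103439097) to variant 6 and probe 2 to variant 1. Probe 2 is shown because it kept the groups apart in the main fit (no base is marked).
Syt6 probe 2, chr3:103424769-103424828: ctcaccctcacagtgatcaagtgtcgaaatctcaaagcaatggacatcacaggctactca
Probe 2 read -0.34, -0.17 and -0.57 on the arrays labelled cKO and -0.04, 0.00 and 0.22 on control. All cKO arrays were lower, by at least 0.13 (log2 difference -0.42, SE 0.14, 95% interval -0.74 to -0.09, adjusted p = 0.581). Probe 1 read 4.19, 4.26 and 4.08 on the arrays labelled cKO and 4.51, 4.60 and 4.16 on control. Control replicate 3 lay within the cKO range, and the log2 difference was -0.25 (SE 0.14, 95% interval -0.58 to 0.08, adjusted p = 0.879). With quantile normalization this probe also kept the groups apart. The difference was -0.38 without control replicate 3, -0.16 without control replicate 2 and -0.42 both with array weights and when Y-linked signal was a term. Relative to Syt6 probe 1 on the same array, Rprm lay 1.06, 1.11 and 1.06 above the control mean on the arrays labelled cKO. The control arrays lay at 0.00, -0.32 and 0.32, and the groups differed by 1.08 (exact two-sided permutation test, p = 0.1, the smallest possible; adjusted p = 0.1 over the 2 pairs). This pair was also chosen after its values were seen.

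Promoters were compared because members of both layers differed in the same direction. RefSeq promoter windows on GRCm38.p6, from 250 bases before to 50 after an annotated start, were at hand for 8 of the 10 genes, in 11 windows. Crym and S100a10 were not among them. The windows were searched for TAATTA, the core of many LIM-homeodomain sites, which reads the same on both strands. It was found in 1 of the 11 windows, the first of 3 for Syt6, against 5.29% of all 32851 windows. A match is a description of letters and not a site. The windows of the members with the largest difference in each layer are shown with that of Syt6, with TAATTA in capitals where it occurs.
Tcerg1l, minus strand, chr7:138397681-138397980: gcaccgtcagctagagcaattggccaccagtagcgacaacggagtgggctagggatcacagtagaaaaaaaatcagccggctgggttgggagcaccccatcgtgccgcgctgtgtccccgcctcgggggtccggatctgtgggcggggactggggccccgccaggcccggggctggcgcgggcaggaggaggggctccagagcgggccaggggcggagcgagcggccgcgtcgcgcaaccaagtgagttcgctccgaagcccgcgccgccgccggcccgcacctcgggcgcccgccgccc
Rprm, minus strand, chr2:54085503-54085802: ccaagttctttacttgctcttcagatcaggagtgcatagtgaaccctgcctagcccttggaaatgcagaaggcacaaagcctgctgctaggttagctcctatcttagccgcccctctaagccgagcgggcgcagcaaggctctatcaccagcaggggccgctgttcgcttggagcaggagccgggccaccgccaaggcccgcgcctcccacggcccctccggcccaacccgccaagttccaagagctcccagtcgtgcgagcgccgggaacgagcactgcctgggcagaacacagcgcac
Syt6, plus strand, chr3:103574995-103575294: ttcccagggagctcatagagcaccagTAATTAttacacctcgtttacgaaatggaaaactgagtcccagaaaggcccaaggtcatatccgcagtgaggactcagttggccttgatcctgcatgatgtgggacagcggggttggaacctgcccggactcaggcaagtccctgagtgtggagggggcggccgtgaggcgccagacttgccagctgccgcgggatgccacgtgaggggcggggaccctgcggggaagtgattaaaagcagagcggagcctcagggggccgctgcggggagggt
The match in Syt6 begins at position -224 relative to the annotated start. GC content was 73.0% in the Tcerg1l window, 63.3% in that of Rprm and 61.0% in the Syt6 window shown.

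Other genes of the deep layers were set beside the members, from lists with 1 probe, the brightest, per gene. Over all 32765 genes the groups did not overlap for 7.16% with the arrays labelled cKO higher and 6.22% with them lower (13.4% in all), and the median log2 difference was 0.02. Among 14 transcription regulators of layers 5 and 6, 0 passed over all probes by limma. Of these, 5 were higher and 2 lower without overlap, and the median was 0.10. That median was 0.03 and 0.05 without control replicates 1 and 2, 0.18 without control replicate 3 and 0.19 without cKO replicate 2. Ldb2, a cofactor of LIM-domain proteins, differed by 1.29 (SE 0.09, adjusted p = 0.081), Bcl6, a transcriptional repressor, by -1.0, and Fezf2, a regulator of subcerebral projection neurons, by 0.45. Among 16 other layer 5 effector genes 0 passed, 4 were higher and 1 lower without overlap, and the median was -0.01. With 1 array left out it lay between -0.16, without control replicate 3, and 0.03, without control replicate 1. The smallest p belonged to the adaptor gene Stac (0.57), the natriuretic peptide clearance receptor gene Npr3 (0.53) and Vat1l (0.84).

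Of 8 other layer 6 effector genes 0 passed, 3 were higher and 0 lower without overlap, and the median was 0.24. They were Sla, a Src-like adaptor (0.58), Thsd7b (0.76) and the neurotensin receptor gene Ntsr1 (0.27), a standard marker of neurons that project to the thalamus. Without cKO replicate 1 the median of the layer 6 list was -0.01. Layer 6 genes thus included members that were higher, such as Rprm, and others near 0, such as Hs3st4 at -0.03 and Garnl3 at 0.01.

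**Figure D3:**
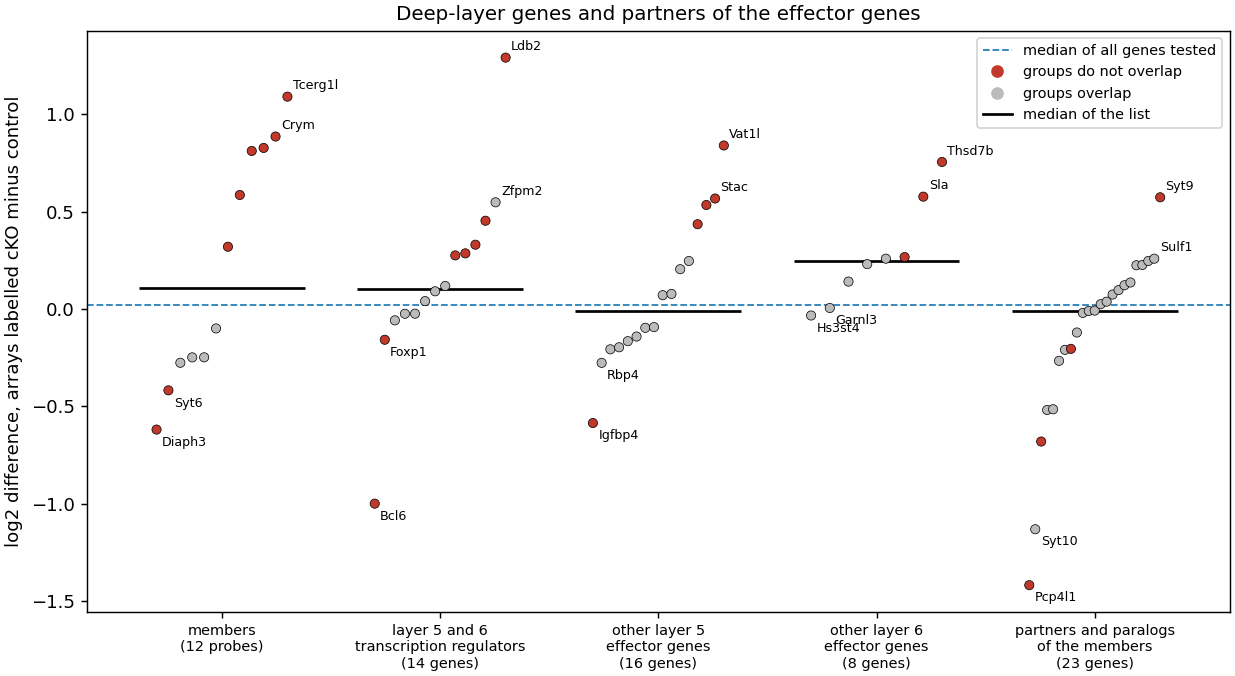
Log2 difference between the arrays labelled cKO and control (vertical axis) for the 12 member probes and for the tested genes of 4 lists, ordered within each list. Red points are features whose groups do not overlap, black lines are list medians and the dashed line is the median of all genes. Ldb2 (1.29) is the highest point and Pcp4l1 (-1.42) the lowest.

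Genes that work with the members or resemble them were also listed. Of 23 such genes 0 passed by limma, and 1 was higher and 3 lower without overlap, with a median of -0.01 (-0.07 to 0.06 with 1 array left out). Pcp4l1, the paralog of Pcp4, read -0.86, -1.19 and -0.65 on the arrays labelled cKO and -0.06, 0.44 and 1.17 on control. The groups did not overlap, though control spread widely (SD 0.62). Its log2 difference was -1.42 (SE 0.31, adjusted p = 0.367), while that of Pcp4 itself was -0.28. Ahnak, a large scaffold protein that binds the complex of S100a10 and annexin A2, differed by -0.68, and the annexin gene Anxa2 by -0.27, both opposite in sign to S100a10 at 0.32. The serotonin receptor genes Htr1b and Htr4, whose proteins bind S100a10, differed by -0.21 and 0.23. H6pd, which supplies the cofactor of the Hsd11b1 enzyme, differed by -0.20, and the glucocorticoid receptor gene Nr3c1 by -0.52, the direction of Hsd11b1. The mineralocorticoid receptor gene Nr3c2, at 0.22, and Hsd11b2, which encodes the enzyme that inactivates glucocorticoid, at 0.07, had the opposite sign. None of these passed, and 0.367 was the smallest adjusted p of the list.

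Markers of several other cell types differed between the groups in their summed signal. The 12 markers of excitatory neurons were all tested, with a median difference of 0.09. With 1 array left out it lay between -0.11, without control replicate 3, and 0.14, without cKO replicate 3, and it was -0.04 without cKO replicate 1 and 0.01 without cKO replicate 2. Their summed log2 signal lay between 8.64 and 8.79 on the arrays labelled cKO and between 8.52 and 8.71 on control. Astrocyte markers were lower for 10 of 10 (median -0.48), with a summed log2 signal from 6.71 to 6.96 on the arrays labelled cKO and from 7.22 to 7.45 on control. Microglia markers were lower for 11 of 11 (median -0.58), at 4.16 to 4.81 against 5.06 to 5.12. Markers of the oligodendrocyte lineage were lower for 12 of 14 (median -0.28), at 7.00 to 7.21 against 7.28 to 7.57. Layer 4 markers were lower for 6 of 7 (median -0.59), at 4.23 to 4.51 against 4.60 to 4.81. Interneuron markers were lower for 10 of 12 (median -0.26), at 5.88 to 6.17 against 6.25 to 6.27. The part of these cells in the values of the members was not tested.

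Crym and Pcp4 are also expressed in the striatum, which lies below the cortex. All 8 striatum markers were tested, and their summed log2 signal was 3.76, 3.35 and 3.34 on cKO replicates 1, 2 and 3 and 3.57, 3.57 and 4.48 on control replicates 1, 2 and 3. Control replicate 3, the highest, had the lowest Crym and Pcp4 of the control arrays, while cKO replicate 1, the highest of its group, had the highest Crym and Pcp4. Markers of meninges were low on cKO replicate 2, with a summed log2 signal of 5.32 against 6.68 to 7.47 on the other arrays. Of 7 markers of the subplate and layer 6b, 6 had a lower mean in the arrays labelled cKO, 3 of them without overlap, and the median difference was -0.43. The median was -0.25 without either cKO replicate 2 or cKO replicate 3. Their summed log2 signal was 4.06 on cKO replicate 1, from 2.73 to 2.78 on the other cKO arrays and from 3.39 to 3.62 on control. Nr4a2, 1 of the 7, read 3.34 on cKO replicate 1 and 0.30 and 0.28 on cKO replicates 2 and 3. The part of neighbouring tissue in the members' values was not tested.

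**Figure D4:**
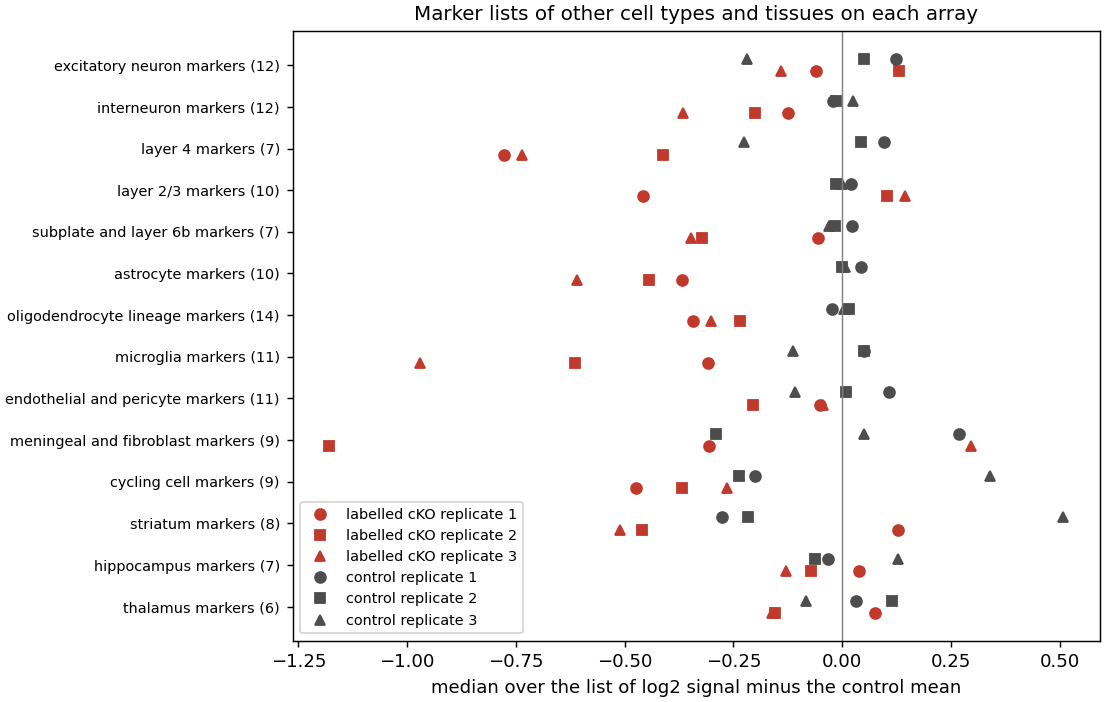
Median over each marker list of log2 signal minus the control mean (horizontal axis), for the control arrays (grey) and the arrays labelled cKO (red), with the number of genes tested in brackets. Astrocyte, oligodendrocyte lineage, microglia, layer 4, interneuron, subplate and cycling cell lists are lower on every array labelled cKO than on any control array. The striatum list is highest on control replicate 3.

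The direction of each member held in all 20 other ways of processing that gave it a value, and within both slide rows. Of these values, 262 had the sign of the main value and 0 the opposite, but many could not differ from it. The filters, 1 probe per gene, the intensity trend and the replicate block leave a difference unchanged. Keeping outlier spots altered only Parm1, and median centring altered the values little. The Y-linked term and leaving out the arrays with Y-linked signal gave the same values. For the 8 of the 12 probes whose groups do not overlap, leaving out arrays or comparing within slide rows could not reverse the sign either. The count thus overstates the number of separate checks. Calls depended on the method. With normexp background correction, 88 probes passed over the array, among them Tcerg1l probe 2 (log2 difference 1.05, adjusted p = 0.013) and Rprm (0.82, adjusted p = 0.021). With an intensity trend and robust variances 119 passed, and with array weights 287, and both added Sulf2 (adjusted p = 0.049 and 0.041). Tcerg1l probe 1, Syt6, Crym, S100a10, Pcp4, Parm1, Hsd11b1 and Diaph3 passed in none of the 20.

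**Figure D5:**
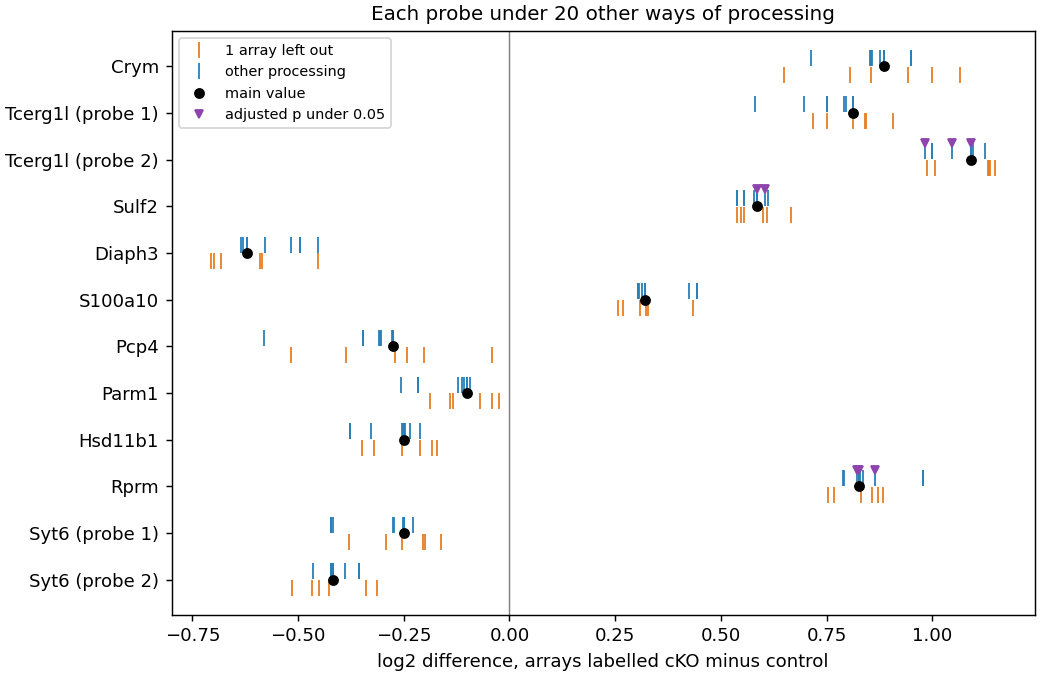
Log2 difference (horizontal axis) of each probe under the main setting (black), with 1 array left out (orange ticks) and with other processing (blue ticks). Triangles mark values with an adjusted p under 0.05, which occur for Tcerg1l probe 2, Sulf2 and Rprm. The values of every probe stay on 1 side of 0, and those of Pcp4 reach from -0.58 to -0.04.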

How the data were processed

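RNA of 3 control and 3 cKO-labelled S1 samples was hybridised to 1-colour Agilent arrays (Cy3). Per the file headers, Feature Extraction 10.5.1.1 gave the deposited intensities: the processed intensity was detrended, background-subtracted and not normalized between arrays. The mean and background intensities were deposited uncorrected. The authors' matrix holds log2 values. Its processing is not stated, and it comes close to processed signals that are quantile normalized, logged and centred on the median of each probe (95% of values within 0.00235), with column medians from -0.0064 to 0.00645. Its scale and centring are thus inferred.

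From the scanner files, log2 of the processed signal was taken relative to the 75th percentile of the array (892 to 1067 intensity units), outlier and control spots were left out and spots of a probe were averaged. Probes well above background on at least 3 of 6 arrays were tested with limma 3.58.1 in R 4.3.3 (lmFit, eBayes, two-sided, Benjamini-Hochberg over 50030 probes, threshold 0.05). The fit was tested on simulated data with changes larger than the difference of any member, so that test does not cover differences of the members' size. Positions of probes on mm9 were read from the files. For the lists, 28752 probes were named through RefSeq accessions (GRCm38.p6), and 26929 kept the name in the file.

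The members and lists were chosen with earlier results of these data known. Every member probe is named. Some listed partner genes are not reported here and were left out of their list's counts. From a list, genes among those with the smallest p are named, and others were chosen after their values were seen. For each member whose groups do not overlap, the 2 named genes closest to its brightest probe are given. Alternatives were other scaling, background correction, filters, variance models, the replicate number as a block, slide row, Y-linked signal, each array left out and the authors' matrix. No annotation of exons or UTRs on mm9 was used.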

Additional observations from a re-analysis of the deposited data

How the results depend on the processing

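The count of probes that passed over the array, 0 in the main fit, was 1 with quantile normalization, the authors' matrix, a filter on all 6 arrays or 1 probe per gene. It was 6 with median centring, 88 with normexp, 119 with an intensity trend and robust variances, and 287 with array weights. Leaving out 1 array gave 0 to 10, the most without control replicate 2. Of the 11 member probes, 0 passed in the main fit, 2 with normexp, and 3 each with the trend or with array weights. Leaving out an array gave 0 throughout. The trend leaves each difference at its main value (Tcerg1l probe 2 1.09, Sulf2 0.59 and Rprm 0.83), and with weights these were 0.98, 0.60 and 0.86. Between 7 and 10 member probes kept the groups apart with an array left out, when 18.6% to 26.9% of all probes did. Under quantile normalization and in the authors' matrix it was 5 higher and 2 lower, in place of 6 and 1. Among the other deep-layer genes and partners the main count of 19 became 32 without control replicate 3. The share over all probes went from 12.7% to 26.9% between these settings. The deep-layer count ranged from 20 to 32 with 1 array left out, beside 18.6% to 26.9% of all probes. With median centring it was 16, beside 9.89%. These shifts went in the direction of the shift over all probes.

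The replicate number as a block left 0 probes called. With 1 array per group and number, it cannot change the difference of a member (Rprm 0.83). Same-numbered arrays correlated at -0.17, 0.07 and 0.16 in their deviations, within the range of differently numbered arrays (-0.25 to 0.22). So few values cannot settle whether the numbers pair the samples, and no label says that they do. A term for slide row or Y-linked signal also left 0 calls. The main fit had 0 calls, so none of these terms could end one. Leaving out control replicates 1 and 3 together rests on 1 control array, assumed to vary like the others, and gave 0 calls. Within slide rows only values could be had, since 1 array stands against 1.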

Other observations

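The genes whose pattern over the 6 arrays came closest to a member, after each probe was centred on its mean, were searched among 23100 named genes, 1 probe each. For Tcerg1l probe 2 they were Flrt3 and Bcl2l11, with a log2 difference of 1.01 each and a root mean square distance of 0.10 for both. For Rprm they were Tpd52l1 (0.88, distance 0.06) and Cobl (0.90, distance 0.07). For Sulf2 they were Bcl7c and Stac, each at 0.57 and a distance of 0.06. Stac is also in the list of layer 5 effector genes. For Crym they were Robo1 (0.78, distance 0.12) and Cntnap4 (0.79, distance 0.13). For S100a10 they were Kcne4 and Micall2, at 0.33 each and a distance of 0.02. For Diaph3 they were Mrgprg (-0.66) and Klra1 (-0.65), at a distance of 0.05. These genes were picked for their likeness, so their differences are a description with no test.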
